A study of Mus musculus with 8 samples.

Results

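The clustered replication-dependent histone genes were chosen from the deposited array table by their platform gene symbols, which start with Hist1h, Hist2h, Hist3h or Hist4. The rule found 54 array features for 49 genes among 62976 features in all. RefSeq (GRCm38.p6) holds 67 clustered histone protein genes of this kind for comparison. Of the 49 genes found, 48 had a value on every array and stand among the 20841 named genes that were tested. The exception, H2ac1, a testis H2A, had a blank on replicate 1 of the libraries labelled Fgf10+/-. The group was chosen by results from the same arrays, so its difference between the genotypes is given below as a description. Counts of members past a limma threshold, in the fit of all genes, are part of that description and support nothing about the group.

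The arrays measured whole lungs of C57Bl/6J mouse pups kept in a chamber at 20% oxygen from postnatal day 0 to day 3. Wild-type pups gave 4 libraries and pups labelled Fgf10+/-, which carry 1 intact copy of Fgf10, gave another 4. FGF10 (fibroblast growth factor 10) is a signal from lung mesenchyme that acts on the epithelium, and the comparison asks how lungs with a single intact copy differ from wild-type lungs in normal air. The sources used here give no allele, litter or sex, and the titles and the series name the mutant group by other words (TG and knock-down). Values are log2 signals of 1-colour (Cy3) Agilent arrays, with 4 samples per group that the submitters call independent.

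Core histones H2A, H2B, H3 and H4 form the protein spool of the nucleosome, and linker histone H1 binds where DNA enters and leaves it. Replication-dependent copies lie in clusters, are transcribed in S phase, and give mRNAs that end in a stem-loop bound by SLBP instead of a poly(A) tail. Amplification kits of the type used here prime from poly(A), and how much of each signal came from polyadenylated copies was not tested. Many copies within a class are nearly identical in sequence. Probe sequences were not used here, so a feature named for 1 copy may read several, and features of a class are not independent measurements.

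Promoters differ between the classes in ways the array values did not choose. Stretches before the start site are shown for the H1 genes and for some H2A, H2B and H4 genes. They come from RefSeq (GRCm38.p6), 5′ to 3′ on the gene's strand, and 43 of the 49 genes had an entry. Capitals mark TATAAA (the TATA box), CCAAT, ATTTGCAT (the octamer) and AAACACA (the H1 box), each searched on both strands, so that ATTGG in capitals is CCAAT read on the opposite strand. All 6 H1 genes are given first, because H1f5 and H1f4 had similar signal and differed in their contrast.
H1f5 (chr13:21780626-21780755, minus strand): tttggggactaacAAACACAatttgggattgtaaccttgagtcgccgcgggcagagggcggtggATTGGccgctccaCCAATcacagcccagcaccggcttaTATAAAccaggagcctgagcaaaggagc
H1f4 (chr13:23622559-23622688, minus strand): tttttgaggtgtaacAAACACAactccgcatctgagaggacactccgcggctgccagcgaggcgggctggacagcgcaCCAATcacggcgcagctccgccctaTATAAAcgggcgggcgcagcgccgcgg
H1f2 (chr13:23738677-23738806, plus strand): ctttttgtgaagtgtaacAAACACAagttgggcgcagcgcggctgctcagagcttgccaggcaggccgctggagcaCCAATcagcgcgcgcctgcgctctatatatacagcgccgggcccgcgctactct
H1f3 (chr13:23554902-23555031, plus strand): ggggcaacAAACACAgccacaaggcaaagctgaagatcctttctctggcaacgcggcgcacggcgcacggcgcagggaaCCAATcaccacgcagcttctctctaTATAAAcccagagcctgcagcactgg
H1f1 (chr13:23763538-23763667, plus strand): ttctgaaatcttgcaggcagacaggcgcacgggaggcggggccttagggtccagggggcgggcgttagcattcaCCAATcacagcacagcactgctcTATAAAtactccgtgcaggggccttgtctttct
H1f6 (chr13:23695681-23695810, plus strand): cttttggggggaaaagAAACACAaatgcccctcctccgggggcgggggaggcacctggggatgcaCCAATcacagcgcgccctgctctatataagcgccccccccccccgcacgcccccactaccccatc
Next come H2ac4 and H2ac10 of the H2A class, H2bc1 and H2bc14 of the H2B class, and H4c12. They do not represent their classes, and no H3 window is printed. H2ac4, H2bc1 and H2bc14 hold AAACACA, which only 2 of 14 H2A and 2 of 9 H2B windows have. H2ac4 and H2bc1 also had the highest difference of their class.
H2ac4 (chr13:23750948-23751087, plus strand): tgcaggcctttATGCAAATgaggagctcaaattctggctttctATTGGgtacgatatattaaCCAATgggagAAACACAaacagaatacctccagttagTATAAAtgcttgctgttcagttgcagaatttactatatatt
H2ac10 (chr13:23533735-23533874, plus strand): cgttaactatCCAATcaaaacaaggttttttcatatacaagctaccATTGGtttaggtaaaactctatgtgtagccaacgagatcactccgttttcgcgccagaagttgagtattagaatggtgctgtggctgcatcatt
H2bc1 (chr13:23934157-23934336, minus strand): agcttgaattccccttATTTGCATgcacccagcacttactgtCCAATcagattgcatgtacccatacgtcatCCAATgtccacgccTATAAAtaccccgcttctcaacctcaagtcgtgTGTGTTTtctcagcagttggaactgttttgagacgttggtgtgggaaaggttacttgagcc
H2bc14 (chr13:21721894-21722043, plus strand): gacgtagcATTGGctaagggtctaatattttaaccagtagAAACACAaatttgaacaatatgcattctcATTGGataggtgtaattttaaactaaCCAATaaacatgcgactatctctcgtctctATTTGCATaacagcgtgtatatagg
H4c12 (chr13:21750554-21750683, minus strand): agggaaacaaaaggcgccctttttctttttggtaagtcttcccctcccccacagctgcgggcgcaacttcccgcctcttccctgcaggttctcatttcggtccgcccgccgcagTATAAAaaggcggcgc

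The H1 box began between bases -122 and -112 relative to the start in H1f2, H1f3, H1f4, H1f5 and H1f6 and was not found in the H1f1 window. Over the 250 bases before the start, AAACACA was present in 5 of 6 H1 windows, in 2 of 14 H2A windows, in 2 of 9 H2B windows and in 0 of 6 H3 and 0 of 8 H4 windows. Of all 32851 promoter windows of the same length, 6.25% held it. CCAAT was present in all 6 H1, all 14 H2A and all 9 H2B windows, in 4 of 6 H3 windows and in 2 of 8 H4 windows, against 33.8% of all windows. The octamer appeared in 7 of 14 H2A and 6 of 9 H2B windows and in 0 windows of the other classes, against 1.6% of all windows. TATAAA appeared in 22 of the 43 windows, against 12.4% of all windows. H2A and H2B genes often lie head to head in the clusters: H2ac22 and H2bc22 start 240 bases apart, H2ac8 and H2bc8 start 180 bases apart, and H2bc1 and H2ac1 start 281 bases apart. A match of letters is a description and shows no bound factor.

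Histone genes had, for the most part, higher mean signals in the libraries labelled Fgf10+/-, but H2B genes divided into 7 higher and 5 lower. Among the 48 genes with complete values, 38 had the higher mean there and 10 a lower mean. That is 79.2% higher, against 49.8% of all 20841 genes. The median log2 difference (Fgf10+/- minus wild type) over the 48 genes was 0.25, a ratio of 1.19, against a median of -0.00 over all genes. The 4 values labelled Fgf10+/- lay wholly above the 4 wild-type values for 12 histone genes, against 2.99% of all genes, and wholly below for 0, against 4.4%. With limma and Benjamini-Hochberg adjustment over all 20841 genes, 0 histone genes passed 0.05, as did 0% of all genes. At an unadjusted p under 0.05 the counts were 14 histone genes higher, against 4.74% of all genes, and 0 lower, against 6.28%. The same contrast drew attention to these genes, so nothing is read from these shares.

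**Figure D1:**
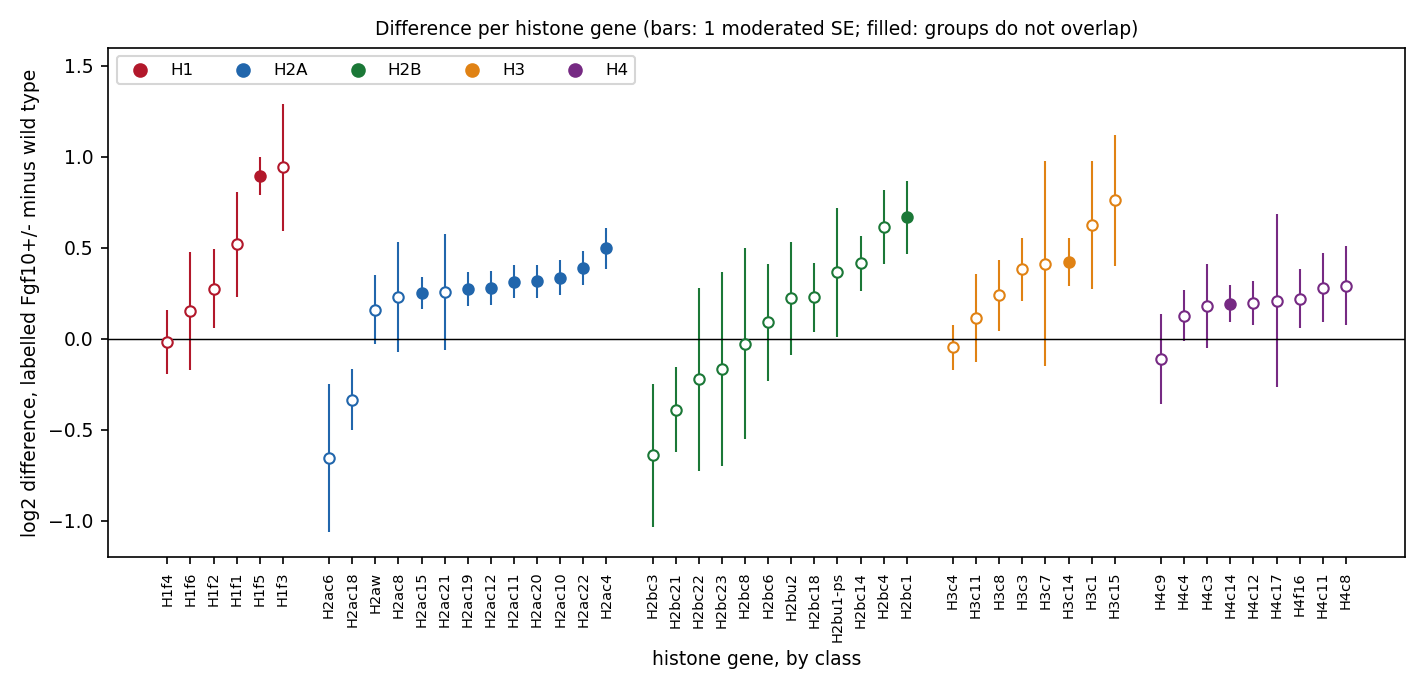
Log2 difference (libraries labelled Fgf10+/- minus wild type, y axis) of each of the 48 histone genes (x axis, grouped and coloured by class), with bars of 1 moderated standard error. Filled points mark the 12 genes whose 4 values per group do not overlap, and 38 of the 48 points lie above 0.

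Fgf10 did not have a lower signal in the group labelled as its heterozygotes. Wild type gave 7.46 ± 0.40 (SD, n = 4) and the other group 7.95 ± 0.32 (SD, n = 4), a log2 difference of 0.49 with limma adjusted p = 0.508. All 10 features named for the gene had the higher mean in the latter, by 0.07 to 0.49, so the printed value is the largest, and every direction here rests on the labels. Lung markers had a mean signal over 9 genes of 11.47 to 11.75 in wild type and 11.43 to 11.55 in the other group. Sftpc and Scgb1a1 among them lay at the top of the scale, with means of 15.98 and 15.94. Of the 9 lung markers, 7 had a lower mean in the libraries labelled Fgf10+/-. For 3 the groups were apart and lower, against 4.4% of all genes. These were Ager, a type 1 cell marker, at -0.55, Nkx2-1, the lung epithelial transcription factor, at -0.55, and Sftpb, a surfactant protein gene, at -0.28. None passed in limma after adjustment. Thymocyte markers would mark thymus carried along with the lung. Their mean over 6 genes was 2.63 to 3.00 in all 8 libraries, below the array median of 3.47. Some single values lay above that median, the highest being Ptcra at 5.27 in replicate 1 labelled Fgf10+/-. Wild-type replicate 4 stood apart: its mean over cartilage markers was 8.07 against at most 3.81 elsewhere, its skeletal muscle mean was 7.82 against at most 4.82, and its brown fat mean was 5.80 against at most 3.81. Values without this library are given below for H1f1 and for the H1 and H2B class medians. Other histone values without it enter the ranges over left-out libraries or its removal together with replicate 3 labelled Fgf10+/-. In whole lung, more cells in S phase and more histone RNA per cell cannot be told apart.

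Linker histones came from 6 features for 6 genes. H1f5 encodes a somatic H1 subtype made mainly in dividing cells. Its log2 signals were 10.52, 10.43, 10.31 and 10.44 in wild-type replicates 1 to 4 and 11.46, 11.25, 11.26 and 11.31 in the replicates labelled Fgf10+/-. All 4 of the latter lay above all 4 of the former, with a gap several times the spread inside either group. The difference was 0.90 (SE 0.10, n = 4 per group), or 1.86-fold, and ran from 0.85 to 0.93 when any single library was left out.

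H1f4, another somatic H1 subtype, is read by a feature of similar brightness. It gave 10.93, 10.55, 11.07 and 10.34 in wild type and 10.70, 10.57, 10.84 and 10.72 in the libraries labelled Fgf10+/-. Here the groups overlapped fully, and the difference was -0.02 (SE 0.18). Its sign changed under 4 of 12 other settings, not all of which could change it. H1f2, a somatic subtype also known for polyadenylated transcripts, gave 8.87, 7.92, 8.54 and 8.43 against 8.89, 8.49, 8.96 and 8.53, a difference of 0.28 (SE 0.22). The ranges overlapped, with wild-type replicates 2 and 4 lying below every value of the other group, and the difference was 0.10 without wild-type replicate 2.

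H1f1, a subtype with a narrower tissue range, gave 6.70, 6.70, 6.88 and 5.60 against 7.01, 6.62, 7.19 and 7.14. Its difference of 0.52 (SE 0.29) was 0.23 without wild-type replicate 4, the lowest library. H1f3 lay near the floor of the scale at 2.28, 2.14, 3.74 and 2.70 against 3.20, 3.82, 3.75 and 3.87. Its difference of 0.94 (SE 0.35) was the largest of the H1 class, yet wild-type replicate 3 lay inside the range of the other group. The testis subtype H1f6 was also low, at 4.07, 4.59, 3.34 and 3.20 against 3.96, 4.37, 3.91 and 3.58, with overlapping groups. Of the 6 H1 genes, H1f5 alone had groups that did not overlap. The class median difference was 0.40, and 0.25 without wild-type replicate 4.

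**Figure D2:**
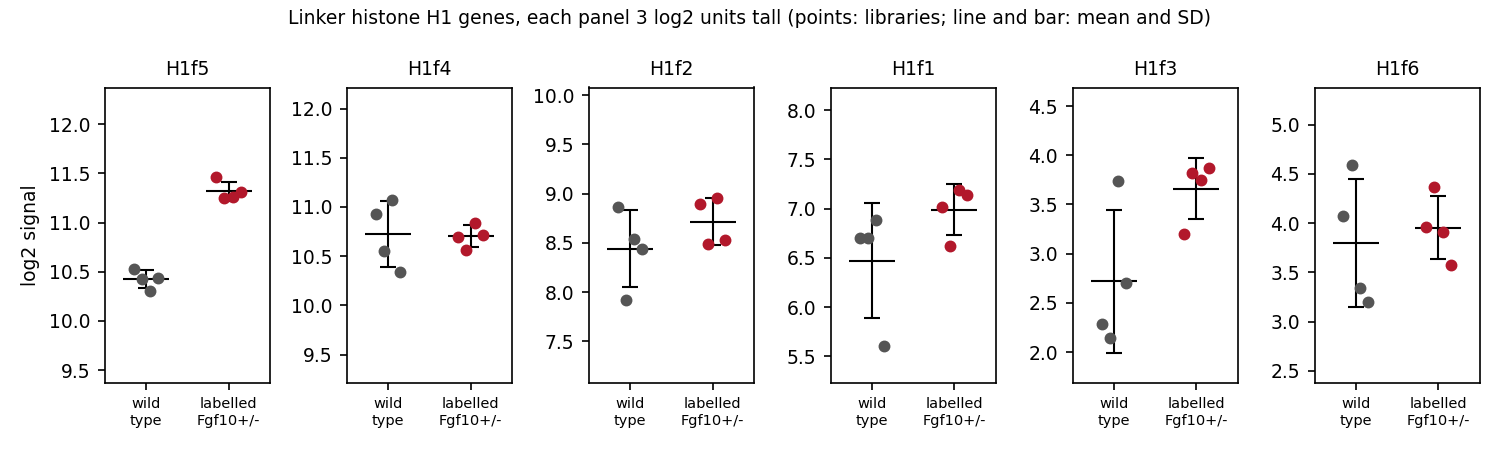
Log2 signal (y axes, each panel 3 log2 units tall) of the 6 linker histone genes, 1 panel each, in wild type and in libraries labelled Fgf10+/- (x axis). Points are libraries, with a line at the mean and bars of 1 SD. The H1f5 values of the 2 groups are apart (10.31 to 10.52 against 11.25 to 11.46), whereas the H1f4 values lie on the same range.

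H2A had 15 features for 14 genes, of which 13 had complete values. Of these 13, 11 had a mean that was higher in the libraries labelled Fgf10+/- and 8 had groups that did not overlap. The share of all genes apart and higher was 2.99%. The class median difference was 0.27. H2ac4, a canonical H2A copy, gave 12.64, 12.66, 12.78 and 12.79 in wild type and 13.23, 13.07, 13.42 and 13.14 in the other group. Every library labelled Fgf10+/- was above every wild-type library, with a difference of 0.50 (SE 0.11), or 1.41-fold.

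The other 7 of those 8 genes were H2ac10, H2ac11, H2ac12, H2ac15, H2ac19, H2ac20 and H2ac22, whose features sit at the top of the scale with means of 15.01 to 15.44, where the highest value in the table is 15.99. H2ac11, the brightest, gave 15.26, 15.24, 15.35 and 15.28 against 15.66, 15.56, 15.57 and 15.59. Its groups were apart, with a difference of 0.32 (SE 0.09). H2ac12 gave 15.18, 15.17, 15.37 and 15.27 against 15.56, 15.52, 15.54 and 15.49, a difference of 0.28 (SE 0.09), and again no value was shared between the ranges. H2ac22, which like H2ac10, H2ac19 and H2ac20 is named after its values were seen, gave 14.78, 14.76, 14.93 and 14.88 against 15.27, 15.23, 15.22 and 15.17, the largest difference of the 7 at 0.39. The smallest was 0.25, for H2ac15.

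These 7 features ran together across the libraries. Expressed as deviations from each feature's own mean, their spread on any 1 array was 0.06 to 0.13, against differences of 0.25 to 0.39 between the groups. All wild-type deviations were -0.27 to -0.02, and all others were 0.09 to 0.24. The genes encode near copies of the same protein, so cross-reading of a common pool of H2A mRNA by the 7 probes was not tested. A feature for H2aj, a replication-independent H2A gene of similar sequence, also lay at the top of the scale (mean 15.08, difference 0.33). In 5 of 8 libraries its deviation fell inside the range of the 7 features, and elsewhere by at most 0.03 outside it.

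H2ac15 had a dimmer second feature, which gave 12.13, 12.13, 12.36 and 12.26 in wild type and 12.76, 12.79, 12.58 and 12.69 in the other group. Its difference of 0.48 was larger than the 0.25 of the brighter feature of the same gene, and its groups did not overlap either. Whether signals near the top of the scale are compressed was not tested. Among all 172 genes with a mean above 14, the median difference was -0.00. In that set 13 genes had groups apart with the libraries labelled Fgf10+/- higher and 18 with them lower. The 13 higher ones were the 7 H2A genes, H2aj and 5 genes that encode no histone: Col1a2, Hspa8, Myl9, Tmsb10 and 2610028H24Rik.

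**Figure D3:**
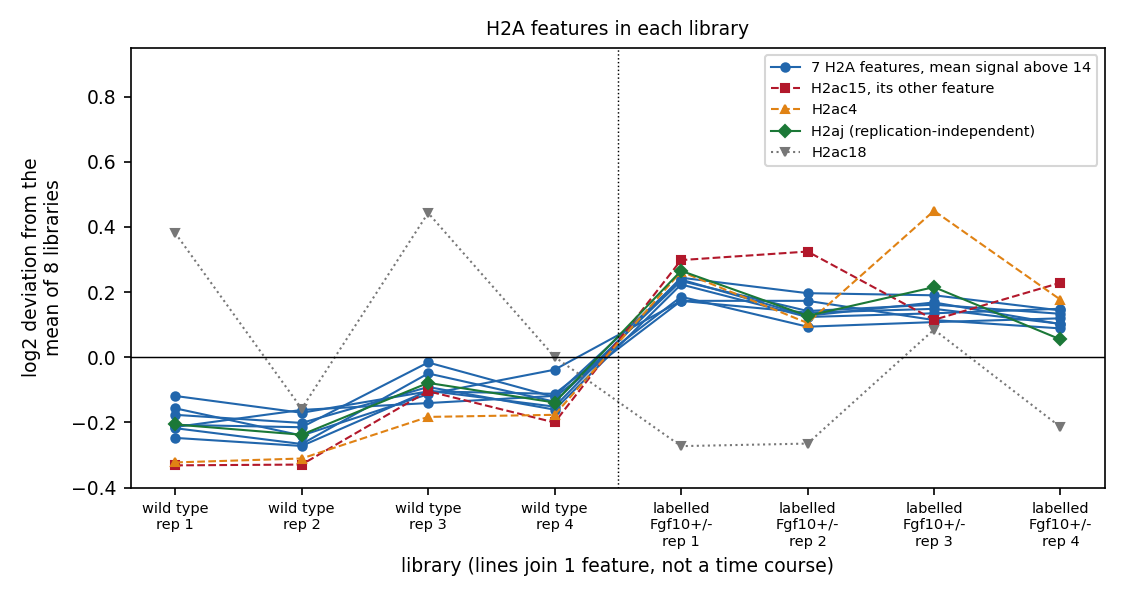
Deviation of H2A features from their own mean over 8 libraries (y axis, log2) in each library (x axis). The 7 bright features and H2aj run together, below 0 in all wild-type libraries and above 0 in all libraries labelled Fgf10+/-, while H2ac18 has the lower mean in the latter.

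H2A members of lower signal had differences in both directions. H2ac18, named after its values were seen, encodes the same canonical H2A as its neighbour H2ac19. It gave 9.81, 9.28, 9.88 and 9.43 in wild type and 9.16, 9.17, 9.52 and 9.22 in the libraries labelled Fgf10+/-, a difference of -0.33. Only replicate 3 of the latter overlapped the wild-type range. H2ac6, at 3.84, 4.11, 4.80 and 5.08 against 2.73, 4.27, 4.16 and 4.06, had the lowest difference of all 48 genes, -0.65 (SE 0.41). Its groups overlapped, and without replicate 1 labelled Fgf10+/- the difference was -0.30. H2aw, the H2A gene of a small separate cluster, had a difference of 0.16 (SE 0.19) at a mean of 9.47. H2ac8 and H2ac21 lay below the array median, with differences of 0.23 and 0.26. H2ac1 gave 2.94, 3.59, 4.09 and 3.07 in wild type and 3.16, 4.42 and 4.31 on the arrays without a blank.

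H2B had 12 features for 12 genes, including the pseudogene H2bu1-ps. The means were higher in the libraries labelled Fgf10+/- for 7 and lower for 5, the most even division of the 5 classes. H2bc1 encodes the testis H2B. Its feature gave 8.92, 8.86, 8.64 and 9.15 in wild type and 9.17, 9.44, 10.04 and 9.58 in the other group. The groups were apart by a narrow margin, between 9.15 and 9.17. The difference was 0.67 (SE 0.20), or 1.59-fold, and 0.51 without replicate 3 labelled Fgf10+/-.

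H2bc4, a canonical H2B also known for polyadenylated transcripts, was the brightest H2B. It gave 9.94, 9.93, 10.24 and 10.60 against 10.47, 10.66, 11.14 and 10.90, a difference of 0.62 (SE 0.20). Wild-type replicate 4 lay above the lowest value of the other group, so the ranges overlapped there. H2bc14 gave 9.22, 8.97, 9.21 and 9.58 against 9.53, 9.56, 9.76 and 9.80, a difference of 0.41 (SE 0.15). Again wild-type replicate 4 alone reached into the other range. At the low end, H2bc3 gave 3.00, 4.03, 4.65 and 2.88 against 3.01, 2.95, 2.68 and 3.35, a difference of -0.64 (SE 0.39) with overlapping groups. Without wild-type replicate 3 it was -0.30. H2bc21, a copy in the smaller cluster named after its values were seen, gave 5.91, 5.76, 5.65 and 6.01 against 5.48, 4.99, 6.10 and 5.21, a difference of -0.39. Replicate 3 labelled Fgf10+/- was its highest library and the other 3 were its lowest. Without that replicate, H2bc21 and H2ac18 were the 2 of 48 histone genes with groups apart in the lower direction, against 6.55% of all genes. Nothing is read from this count. The remaining 7 H2B genes had differences of -0.22 to 0.37 and means of 2.45 to 6.98, and their groups overlapped. The class median difference of 0.16 depended on the libraries: it was 0.09 without wild-type replicate 2 and 0.06 without wild-type replicate 3. It was 0.24 without wild-type replicate 1, 0.27 without wild-type replicate 4 and 0.25 without replicate 4 labelled Fgf10+/-.

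H3 had 8 features for 8 genes, 7 with a mean that was higher in the libraries labelled Fgf10+/-. H3c14 gave 9.09, 8.95, 9.14 and 9.02 in wild type and 9.26, 9.47, 9.78 and 9.39 in the other group. It was the only H3 gene whose groups did not overlap, with a difference of 0.42 (SE 0.13). H3c4 is read by the brightest H3 feature and gave 12.76, 12.67, 12.86 and 12.44 against 12.69, 12.50, 12.74 and 12.61. Its values overlapped, with a difference of -0.05 (SE 0.12), and the sign changed under 2 of 12 other settings, not all of which could change it. H3c3 gave 7.17, 6.96, 7.48 and 7.42 against 7.56, 7.35, 7.96 and 7.69, a difference of 0.38 (SE 0.17). Replicate 2 labelled Fgf10+/- fell within its wild-type range.

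The highest H3 difference was that of H3c15, at 4.80, 5.47, 4.40 and 5.75 against 5.18, 5.80, 6.45 and 6.05. It was 0.76 (SE 0.36), with overlapping groups. By their current names, all of these encode H3 proteins of the replication-coupled kind, H3.1 or H3.2. The platform symbol of the H3c15 feature, Hist2h3c2-ps, is however that of a pseudogene. H3c1, H3c7, H3c8 and H3c11 had differences of 0.63, 0.41, 0.24 and 0.12, with means between 3.85 and 5.20 and overlapping groups in each. The class median was 0.40.

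H4 had 13 features for 9 genes, all of which encode the same protein. Means were higher in the libraries labelled Fgf10+/- for 8 of the 9, though by less than in H1, and the class median was 0.20. H4c12 gave 13.25, 13.13, 13.34 and 13.03 against 13.44, 13.28, 13.57 and 13.24, a difference of 0.20 (SE 0.12), and its second feature a difference of 0.27. In both groups replicate 3 was the highest library, and the ranges overlapped. H4c14 gave 12.99, 12.79, 13.00 and 12.87 against 13.11, 13.04, 13.22 and 13.05. Its groups were apart, with a difference of 0.19 (SE 0.10). Its other feature, near the floor at a mean of 2.48, had a difference of -0.27, and the mean of both gave -0.04.

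H4c4 gave 12.35, 12.16, 12.50 and 12.15 against 12.35, 12.34, 12.71 and 12.26, a difference of 0.13 (SE 0.14) with overlapping groups, and of 0.03 without replicate 3 labelled Fgf10+/-. H4c8 had the highest H4 difference, 0.29 (SE 0.22), at a mean of 4.09, and gave 0.13 without wild-type replicate 2. The lowest was that of H4c9, -0.11 (SE 0.25), whose other feature gave 0.62, so the features of this gene had opposite signs. H4c3, H4c11 and H4c17 had differences of 0.18, 0.28 and 0.21, with overlapping groups. H4f16, the solitary H4 gene outside the clusters, had differences of 0.22 in its brighter feature and -0.34 in a feature at a mean of 2.08. Leaving out wild-type replicate 2 put the H4 class median at 0.13, and leaving out replicate 3 labelled Fgf10+/- put it at 0.10.

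The median deviation of each class from the wild-type gene means shows the libraries one by one. For H1 it was 0.22, -0.08, 0.22 and -0.20 in wild type and 0.47, 0.36, 0.62 and 0.38 in the other group. For H2A it was -0.05, -0.08, 0.07 and 0.04 against 0.31, 0.28, 0.29 and 0.26. The groups were apart in these classes, most tightly in H2A. There, 7 of the 13 genes are the bright features that ran together, so nothing is read from that tightness. For H2B the wild-type values were 0.01, -0.14, -0.11 and 0.28 against 0.08, 0.17, 0.28 and 0.16. For H3 they were 0.06, -0.06, 0.16 and -0.04 against 0.14, 0.46, 0.52 and 0.39. For H4 they were 0.07, -0.18, 0.28 and -0.07 against 0.20, 0.09, 0.42 and 0.14. In H2B, H3 and H4 the groups overlapped, through wild-type replicate 4 in H2B and through wild-type replicate 3 in H3 and H4. Over the 48 genes, replicate 3 labelled Fgf10+/- was the highest library for 18 and wild-type replicate 2 the lowest for 16.

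**Figure D4:**
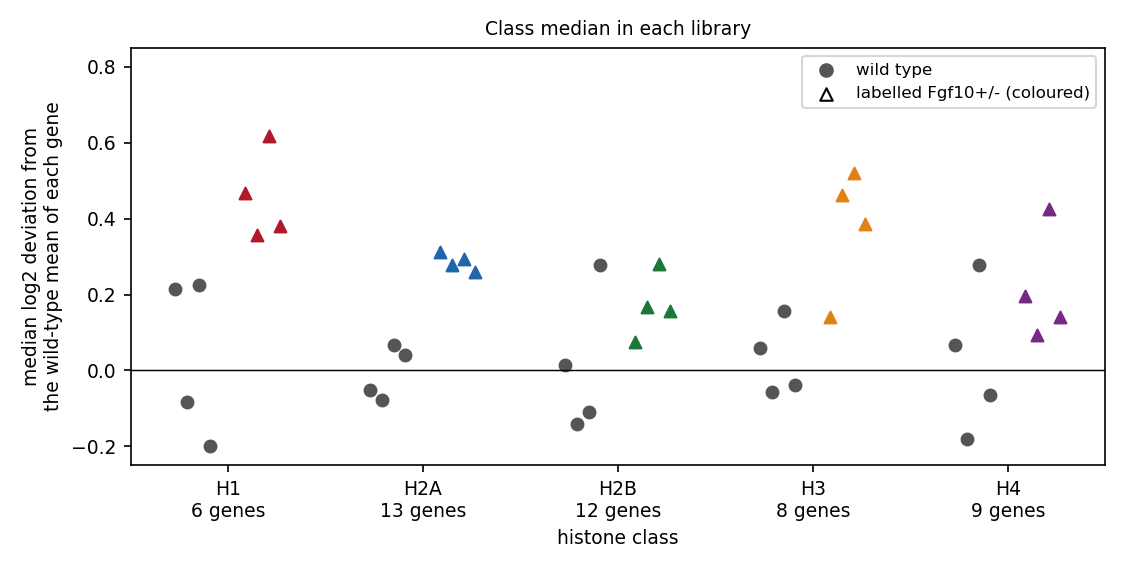
Median deviation of the genes of each histone class from their wild-type means (y axis, log2) in each library, circles for wild type and triangles for libraries labelled Fgf10+/-. H1 and H2A have no overlap between circles and triangles, and H2B, H3 and H4 do. In H2A, 7 of the 13 genes are the bright features that ran together.

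The histone genes are also described by signal strength. Of the 48, 27 had a mean at or above the 75th percentile of the array (6.61) and 21 lay below it. The brighter 27 had 24 higher and 3 lower means, a median difference of 0.28, and all 12 of the genes with groups apart. Of all 9030 genes this bright, 49.9% had the higher mean, the median was -0.00, and 4.56% were apart and higher. The dimmer 21 had 14 higher and 7 lower means, a median of 0.21, and 0 genes with groups apart. Of all 11811 genes this dim, 49.7% had the higher mean, the median was -0.00, and 1.79% were apart and higher. The median pooled SD within groups was 0.19 for the brighter genes and 0.56 for the dimmer ones, so a difference of the same size stood out less among the latter. Differences were larger than the gene's own pooled SD in 21 higher and 3 lower genes and smaller in 24. The share of all genes past this limit was not counted, so nothing is read from these counts. When the 7 top H2A features were set aside, the remaining 41 genes had a median of 0.22, with 31 higher means and 5 with groups apart: H1f5, H2ac4, H2bc1, H3c14 and H4c14.

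**Figure D5:**
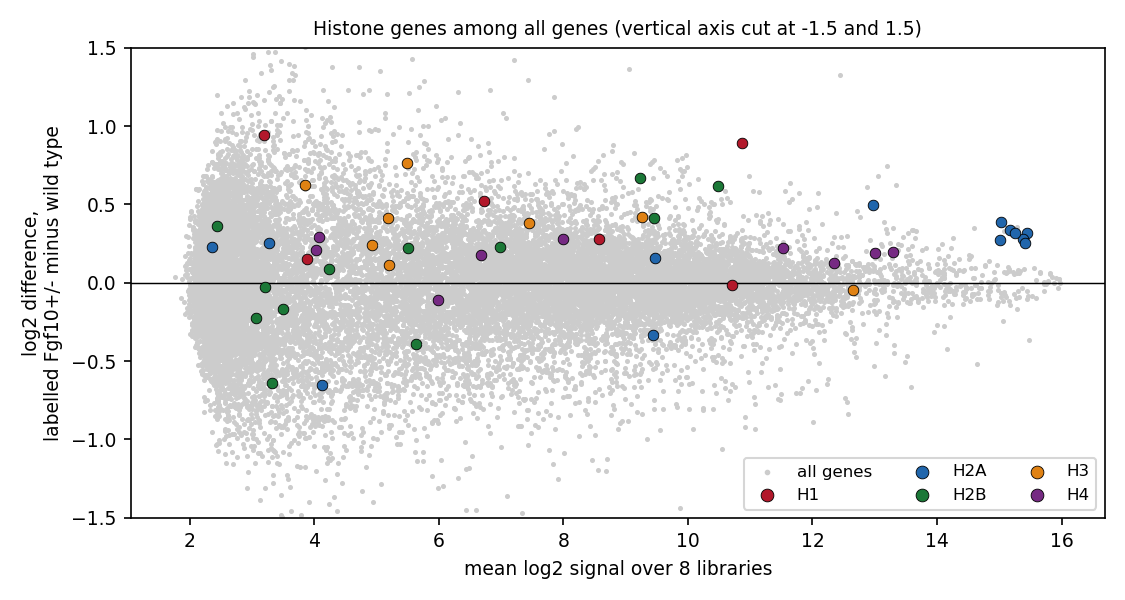
Log2 difference (libraries labelled Fgf10+/- minus wild type, y axis) against mean log2 signal (x axis) for all genes (grey) and the histone genes (coloured by class). Histone genes with groups apart lie at or above the 75th percentile of 6.61, and 7 H2A genes form a tight group between 15.01 and 15.44.

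Other genes of the histone pathway were taken as whole lists, none of whose members passed 0.05 in limma after adjustment over all genes. For reference, 2.99% of all genes had groups apart and higher in the libraries labelled Fgf10+/-, and 4.4% apart and lower. Factors for histone gene transcription, 3′ end processing and decay had 11 higher and 7 lower means among 18 measured genes, with a median difference of 0.07. Slbp, which binds the stem-loop, had a difference of 0.14 (SE 0.16). Npat, the co-activator of histone genes, and Casp8ap2 (FLASH), which works with it at the histone locus body, had -0.14 and 0.13. Npat was read near the floor at a mean of 2.50. Lsm10 and Lsm11, subunits of the U7 particle that directs the cleavage, had -0.10 (SE 0.13) and -0.08 (SE 0.31). Zfp473, which bridges SLBP and U7, had 0.05 (SE 0.42) at a mean of 3.31, below the array median of 3.47. Eri1, the exonuclease that trims and degrades these mRNAs, had -0.33 (SE 0.17). Of the 18, only Ncbp1, the large subunit of the nuclear cap-binding complex, had groups that did not overlap, at 6.90, 6.87, 6.81 and 6.78 against 7.21, 7.20, 7.10 and 7.17.

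Histone chaperones and importers had 14 higher and 4 lower means among 18 of 19 listed genes that were measured, with a median of 0.11. Nasp, a chaperone of H3-H4 and of linker histones, gave 9.42, 9.54, 9.62 and 9.64 in wild type and 10.07, 9.93, 10.05 and 10.10 in the libraries labelled Fgf10+/-. Its groups were apart, with a difference of 0.48 (SE 0.10, limma adjusted p = 0.166). Asf1b, which hands H3-H4 to the assembly factors in dividing cells, lay between 7.95 and 8.54 in wild type and between 8.82 and 9.03 in the other group, a difference of 0.65 (SE 0.14, limma adjusted p = 0.178). Groups were apart here too, as for Dnajc9, a histone co-chaperone, at 0.30. Chaf1a, the large subunit of chromatin assembly factor 1, had 0.20 (SE 0.20), and Hat1, which acetylates new H4, had 0.07 (SE 0.19).

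Histone genes outside the replication-dependent set had 9 higher and 1 lower means among 10 measured of 11 listed, with a median of 0.24. Groups were apart and higher for 5, against 2.99% of all genes. H2ax, whose mRNA can end in a stem-loop or a poly(A) tail and whose protein marks DNA breaks, gave 10.21, 10.08, 10.45 and 10.42 against 10.91, 10.84, 10.77 and 10.65. Every library labelled Fgf10+/- was above every wild-type library, with a difference of 0.51 (SE 0.12, limma adjusted p = 0.201). H2az1, the H2A.Z variant gene, had 0.33, its relative H2az2 had 0.28, and Cenpa, the H3 variant of centromeres, had 0.54, all with groups apart. H3f3a and H3f3b, which encode the replication-independent H3.3, had 0.10 (SE 0.10) and -0.19 (SE 0.14).

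Genes of S phase had 27 higher and 2 lower means among 29 of 30 listed genes that were measured, with a median of 0.26, close to the 0.25 of the histone genes. Rrm2, the small subunit of ribonucleotide reductase, gave 10.12, 10.02, 10.37 and 10.15 against 10.90, 10.69, 10.53 and 10.54, a difference of 0.50 (SE 0.13, limma adjusted p = 0.229). Its groups were apart, as were those of Mcm5, Rrm1 and Ccna2 at 0.49, 0.37 and 0.65. Ccne1, the cyclin of S phase entry, had 0.58 with overlapping groups. Pcna, the replication clamp, had 0.18, Mcm2, a helicase subunit, 0.26, and E2f1, a driver of S phase transcription, 0.17. The mean signal over the 29 genes was 8.15 to 8.33 in wild type and 8.33 to 8.77 in the other group, where replicate 1 labelled Fgf10+/- stood highest and its other 3 libraries lay between 8.33 and 8.46. The part of S phase cells in the histone difference was not tested.

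Markers of other cell types stand beside these values. Alveolar type 2 cell markers had lower means in the libraries labelled Fgf10+/- for 6 of 6 genes, with a mean signal of 12.96 to 13.07 in wild type and 12.46 to 12.58 in the other group. Sftpc among them lay at the top of the scale (mean 15.98, difference -0.00, groups overlapping), so its direction is not read. Erythroid markers, with 5 of 6 measured, were at 11.48, 10.16, 11.63 and 11.99 against 10.19, 11.66, 12.75 and 11.16, with overlapping groups. Replicate 3 labelled Fgf10+/-, the highest library for the most histone genes, was also the highest for erythroid markers. The part of either cell type in the histone values was not tested. Without wild-type replicate 4 and that replicate together, the median difference over the 48 histone genes was 0.19.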

How the data were processed

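The deposited table holds log2 signals, which the authors had quantile normalized: sorted arrays differ by at most 0.0042. Per the labels' protocols, miRNeasy columns gave the RNA and Agilent's Low-Input QuickAmp kit amplified it. limma is named in the submitters' processing notes without a version. The sources used here name no background correction or spot filter, so compression near the floor or the top of the scale is unknown.

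Platform symbols named 31465 features, 31511 were unnamed, and symbols were updated through accessions against RefSeq (GRCm38.p6), which matched 29050. The 2 histone features with no match took the RefSeq symbol listing theirs as a synonym. After 40 features with blanks were left out, the feature with the highest mean stood for each of 20841 genes. limma 3.58.1 in R 4.3.3 was fitted on all 8 arrays (group only, two-sided, Benjamini-Hochberg adjustment, threshold 0.05) and tested on simulated data. Standard errors are limma's moderated ones. The number of arrays limits the precision, and separate litters are not stated, so p-values measure the spread between these samples.

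Named genes were every H1 member, the 3 brightest members and the highest and lowest differences of each core class, and a list of pathway genes. Members and lists were chosen with earlier results of these data known. Alternatives were further quantile normalization, median centring, leaving out genes below the 25th or 50th percentile, a variance trend with robust settings, the replicate number as a block, other uses of features, and leaving out each library. Leaving out wild-type replicate 4 and replicate 3 labelled Fgf10+/- together was added after seeing the data. Replicate numbers are not said to pair the samples. Correlations of same-numbered deviations were 0.11, 0.02, 0.02 and 0.08, which cannot decide whether a pairing by litter or array run exists.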

Additional observations from a re-analysis of the deposited data

Results flagged for a closer look

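In 4 of 138 groups of 4 libraries tested, a single library lay far from the other 3 by Dixon's criterion, which chance meets in about 1 in 20 groups. Wild-type replicate 4 gave H1f1 its lowest signal, 5.60 against 6.70 to 6.88 in the other wild-type libraries. Replicate 1 labelled Fgf10+/- gave H2ac6 its lowest, 2.73 against 4.06 to 4.27. Wild-type replicate 2 gave H2ac8 its highest wild-type signal, 2.44 against 2.16 to 2.19, near the floor. Replicate 3 labelled Fgf10+/- gave H2ac18 its highest in that group, 9.52 against 9.16 to 9.22.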

How the results depend on the processing

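The number of all genes past the adjusted threshold depended on the fit: 0 as reported, 38 without genes below the 25th percentile of mean signal, 288 without those below the 50th, and 414 with a variance trend and robust settings. Among them were 1 histone gene (H1f5, against 0.243% of genes tested), 3 (H1f5, H2ac4 and H2ac22, against 2.76%) and 10 (H1f5, H2bc1 and 8 H2A genes, against 1.99%). Leaving out single libraries gave 0 to 1 genes, the 1 without wild-type replicate 4. Histone genes under an unadjusted p of 0.05 then numbered 11 to 16 (8.74% to 12.7% of all genes), those apart and higher 12 to 16 (4.15% to 6% of all genes), and those apart and lower 0 to 2 (5.58% to 7.68%). The 2 lower ones appeared without replicate 3 labelled Fgf10+/-, alone (6.55% of all genes) or together with wild-type replicate 4 (10.5%). The median over histone genes was 0.18 to 0.29, and class medians were 0.25 to 0.51 for H1, 0.26 to 0.31 for H2A, 0.06 to 0.27 for H2B, 0.29 to 0.45 for H3 and 0.10 to 0.28 for H4. The H2B median was 0.09 without genes below the 25th percentile. With the replicate number as a block, 0 genes passed and 16 histone genes had an unadjusted p under 0.05, as did 11.8% of all genes. Of 4 wild-type libraries, 2 correlated best with their own number. Of 24 named histone genes, 19 kept their sign under all 12 alternatives checked gene by gene, and H1f4, H1f6, H3c4, H4c9 and H4c14 did not. Not all of these alternatives could change a sign. Leaving out genes below the 25th percentile does not alter a gene's difference, and the mean of all features does so only for genes with several. Leaving out wild-type replicate 4 and replicate 3 labelled Fgf10+/- together was not among those 12. The mean of all features gave 0.37 for H2ac15 and -0.04 for H4c14. Centring on the median gave a histone median of 0.27. The causes were not tested. Probes near the floor limit what the dimmer genes show.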
